A study of Homo sapiens with 6 samples.

Results

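Astrocyte and oligodendrocyte genes were examined in chromatin from cultured human neurons. The 9 genes were 5 astrocyte genes (AQP4, ALDH1L1, SLC1A2, SLC1A3 and S100B) and 4 oligodendrocyte genes (OLIG1, OLIG2, MBP and MOG), out of 19974 protein-coding genes on 23 chromosomes. They were taken as a given set of names, and a peak was assigned to a gene when it shared at least 1 bp with the gene's interval extended by 20 kb on each side, called the window below. These windows held 51 of the 78694 peaks for H3K27ac and 29 of the 43677 peaks for CTCF. The study mapped both marks by chromatin immunoprecipitation and sequencing in neurons grown in BrainPhys-type medium from neural progenitors of KOLF2.1J, a human induced pluripotent stem cell line, as part of a search for regulatory elements of MAPT. There were 2 CTCF libraries, 2 H3K27ac libraries and 2 input libraries, all untreated and all of this 1 line. Each antibody had 1 peak list for both of its replicates, so no spread between replicates could be given and no test was made. The lists hold no read counts, and the depth behind each value is unknown.

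H3K27ac, an acetylated form of histone H3, accumulates at active promoters and enhancers. CTCF binds DNA at the anchors of chromatin loops and at insulators. Astrocytes clear glutamate from synapses and buffer water and ions, while oligodendrocytes wrap axons in myelin. Both descend from the neural progenitors that first make neurons, and several astrocyte genes are already active in radial glia, the progenitors of the developing brain. A peak in a culture does not say which cells carried it, and fewer cells of a type cannot be told apart from less of the mark in each cell.

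The label of the cultures was checked with marker lists. All 15 neuron markers had an H3K27ac peak in their window, and their median highest fold enrichment was 17.9, with the highest value in GAP43 (47.0). RBFOX3 (5.96), NEFL (8.38), ELAVL4 (11.9), SYP (12.7) and NEFM (14.3) lay below the 14.4 median of all protein-coding genes, and the others above it. The strongest peak overlapped the marker itself for 11 of the 15. The 46.4 in the window of SYN1 belonged to a peak overlapping the neighbour ARAF, and the highest inside SYN1 was 5.54. All 11 neural progenitor markers had one as well, with a median of 38.7. The highest value there, 58.7 in the window of NOTCH1, belonged to a peak overlapping the neighbour SEC16A, and the highest inside NOTCH1 was 22.4. Of all protein-coding genes, 81.3% had a peak in their window, and the median of the highest value was 14.4. Among 8 microglia markers 3 had a peak, with a median of 0. The highest value there, 46.8 in the window of AIF1, belonged to a peak overlapping the neighbour PRRC2A, and AIF1 itself held none. PTPRC went the other way, with 4 peaks, all inside the gene, and a highest value of 26.0. Among 12 liver and muscle markers 7 did, with a median of 2.97 and the highest value in MYH7 (20.4). Neuron and progenitor markers were therefore both acetylated, and the share of each cell type in the cultures was not analysed here.

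Of the 5 astrocyte genes, 4 had H3K27ac in their window, against 3 of the 4 oligodendrocyte genes and 81.3% of protein-coding genes. Within the gene interval itself 4 of 5 astrocyte genes and 1 of 4 oligodendrocyte genes had a peak, where 69% of protein-coding genes did. The highest fold enrichment of a peak in each window was 28.8 for S100B, 20.6 for SLC1A2, 14.3 for SLC1A3, 12.8 for ALDH1L1 and 0 (no peak) for AQP4. It was 8.004 for MBP, 6.18 for MOG, 5.88 for OLIG1 and 0 for OLIG2. The sets overlapped because AQP4 had no peak, and the other 4 astrocyte genes all lay above the highest oligodendrocyte gene. This order depended on the window: with 50 kb each side MOG reached 18.8, above SLC1A3 (14.3) and ALDH1L1 (12.8), and in the gene interval alone ALDH1L1 (4.39) lay below MBP (8.004). The 18.8 peak lay below MOG, on the side of the neighbour GABBR1, whose interval ends 23.9 kb from MOG. Above MOG no H3K27ac peak was listed for 270 kb. The median over the astrocyte genes was 14.3, close to the 14.4 of all protein-coding genes, and the median over the oligodendrocyte genes was 6.03. With 5 and 4 genes and 1 list, the difference between the sets has no test.

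The astrocyte windows held 44 H3K27ac peaks in 576 kb, or 7.64 per 100 kb. The oligodendrocyte windows held 7 in 336 kb, or 2.09 per 100 kb, and the windows of all protein-coding genes held 4.57 per 100 kb. Peaks covered 4.85% of the astrocyte windows, 0.526% of the oligodendrocyte windows and 2.94% of all windows. SLC1A3 alone carried 23 of the 44 astrocyte peaks, and without it the astrocyte density was 4.73 per 100 kb. Without MBP, which held 5 of the 7 oligodendrocyte peaks, the density there was 1.42 per 100 kb. Among the 44 astrocyte peaks, 7 had a fold enrichment of 10 or more and 7 were 1 kb or wider. None of the 7 oligodendrocyte peaks reached either size. In the whole list 19.5% of peaks had such a fold enrichment and 16.4% such a width.

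**Figure D1:**
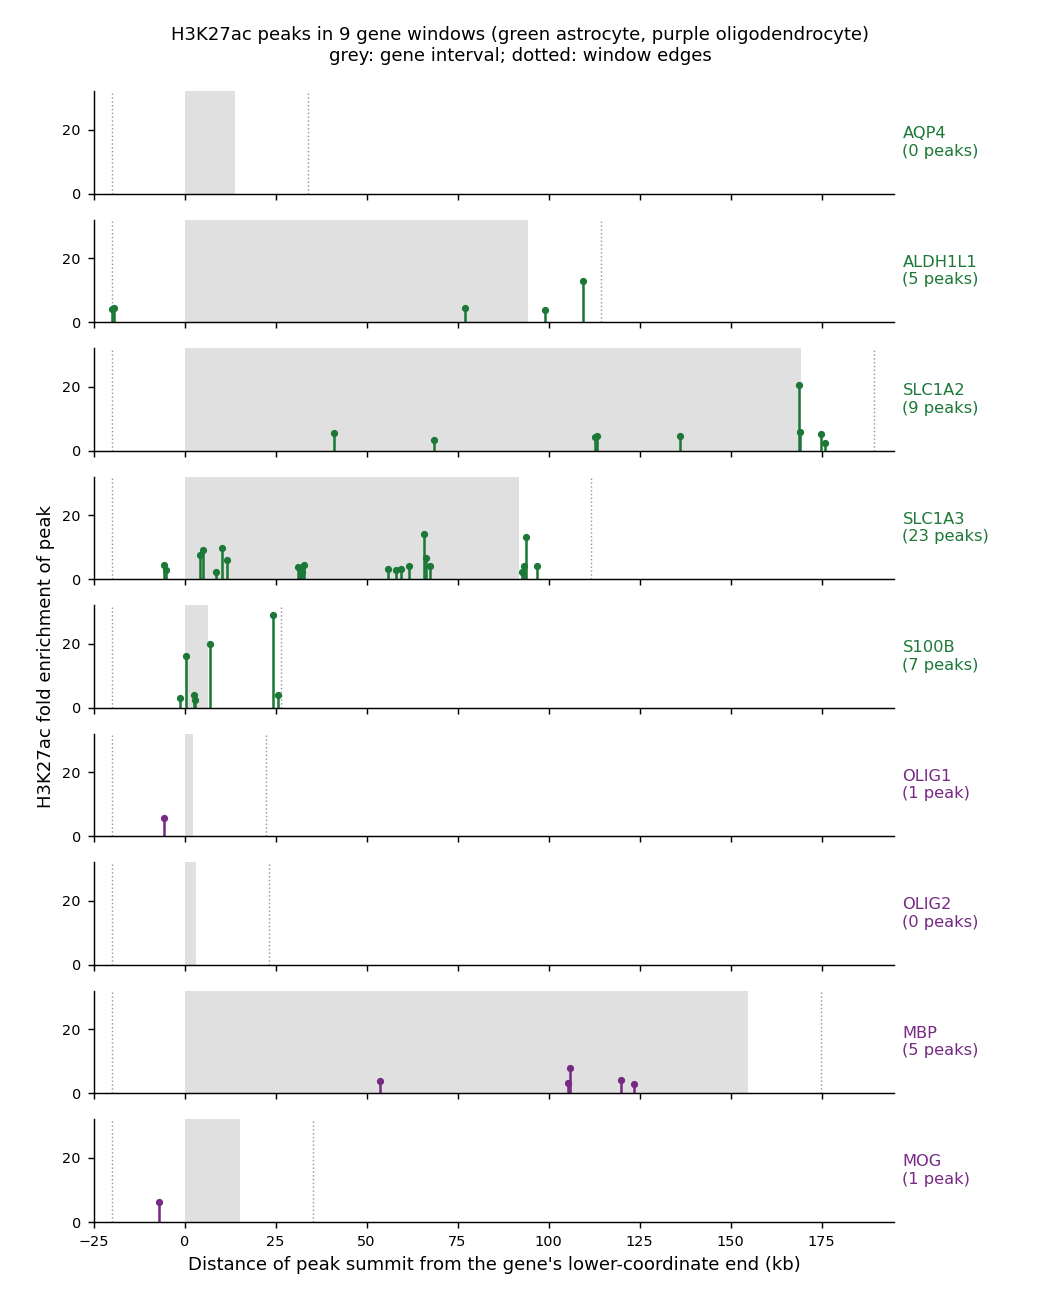
H3K27ac peaks in the window of each gene. The x axis is the distance of the peak summit from the gene's lower-coordinate end in kb, the y axis is the fold enrichment of the peak, grey areas are gene intervals and dotted lines the window edges. SLC1A3 has 23 peaks in several groups, S100B has the highest peak (28.8), and AQP4 and OLIG2 have none.

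**Figure D2:**
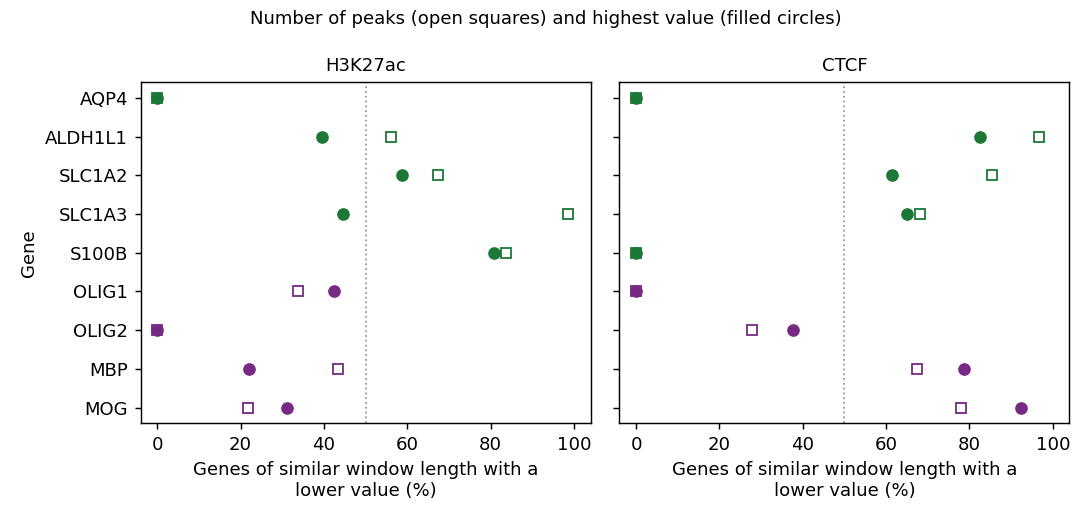
Each gene's number of peaks (open squares) and highest value (filled circles), as the percentage of protein-coding genes with a similar window length that had a lower value. For H3K27ac, SLC1A3 stands at 98.6% by number and 44.5% by highest value. AQP4 and the 4 oligodendrocyte genes lie below the dotted line at 50% by both measures. By highest value SLC1A3 and ALDH1L1 (39.6%) also lie below it, and OLIG1 (42.4%) lies above ALDH1L1.

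SLC1A3 and SLC1A2 encode the glutamate transporters EAAT1 and EAAT2, which remove glutamate from the synaptic cleft. EAAT1 is also a known marker of radial glia. SLC1A3 lies on chromosome 5 from 36596588 to 36688334 (91.7 kb) on the plus strand. Its 23 H3K27ac peaks were more than those of 98.6% of the 2220 genes with a window within 20% of its length, whose median was 4. Its highest fold enrichment, 14.3, exceeded that of 44.5% of them. The gene thus had many peaks of ordinary height: fold enrichments ran from 2.29 to 14.3 with a median of 4.12, and 16 of the 23 were under 5. Of the 23, 3 had a q-value above 0.05.

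The SLC1A3 peaks fell into 5 groups when peaks less than 5 kb apart were joined, a distance chosen after the positions were seen. Ahead of the gene were 2 weak peaks, 4.779 and 5.47 kb from its first base. The next group held 5 peaks from 3.58 to 12.05 kb inside the gene and included a peak of 1898 bp from 36605772 to 36607669 (fold enrichment 9.87). A group of 5 peaks 31.1 to 33.0 kb inside reached no more than 4.50. A group of 7 peaks 55.8 to 67.7 kb inside held the strongest one, 1488 bp wide, from 36660963 to 36662450 (fold enrichment 14.3). The last 4 peaks lay past the end of the gene, within the antisense RNA gene SLC1A3-AS1, and the strongest of them had a fold enrichment of 13.1.

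SLC1A2 lies on chromosome 11 from 35251205 to 35420507 (169 kb). Its 9 H3K27ac peaks exceeded the number in 67.3% of the 1225 genes of similar window length. The strongest, 1793 bp wide from 35418286 to 35420078, reached 20.6-fold enrichment with a −log10 q of 53.8 and lay at the higher-coordinate end of the gene, where SLC1A2-AS2 also lies. The other 8 peaks ranged from 2.56 to 5.94. So SLC1A2 had 1 strong peak at a gene end and weak ones along its length, whereas SLC1A3 had several of moderate height. The antisense gene's own share of the peak cannot be told apart.

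S100B encodes a calcium-binding protein used as a marker of mature astrocytes. It is a short gene on chromosome 21 from 46598604 to 46605082 (6.48 kb), and 19.0% of its 46.5 kb window was covered by H3K27ac. Among 7793 genes of similar window length, 96.5% had less covered. It had 7 peaks, of which 3 were 2 kb or wider, a width reached by at least 1 peak in the windows of 17.9% of protein-coding genes and by at least 3 in 1.34%. The first, 2922 bp wide, ran from 46597746 to 46600667 over the lower-coordinate end of the gene with a fold enrichment of 16.3. A second ran from 46604352 to 46606474 over the other end, with a fold enrichment of 20.02. The strongest of the 7, from 46620870 to 46623657, reached a fold enrichment of 28.8, at percentile 96.4 of the list. It lay 15.8 kb beyond the gene, between S100B and PRMT2, and overlapped no protein-coding gene. The remaining 4 peaks had fold enrichments from 2.32 to 3.96.

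ALDH1L1, an enzyme of folate metabolism and a widely used astrocyte marker, lies on chromosome 3 from 126103570 to 126197945 (94.4 kb) on the minus strand. It had 5 H3K27ac peaks, and 1 of them was inside the gene. That one was 171 bp wide, from 126180451 to 126180621, with a fold enrichment of 4.39. The strongest peak of the window (fold enrichment 12.8) lay 14.5 kb upstream of the gene, from 126212430 to 126214091, at the RNA gene LOC124909426. The inner peak was below the list's median of 4.74, so most of the height credited to ALDH1L1 lay outside the gene. Within the gene interval alone, its highest value would be 4.39 instead of 12.8.

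AQP4, the water channel of astrocyte end-feet, had no peak of either mark in its window on chromosome 18, from 26852038 to 26865803 for the gene itself (13.8 kb). This was the case for 9.24% of protein-coding genes. Among the 8120 genes of similar window length, 77.1% had at least 1 H3K27ac peak and 79.8% at least 1 CTCF peak. AQP4 thus stood with OLIG2 rather than with the other 4 astrocyte genes in its H3K27ac.

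OLIG1 and OLIG2 are neighbouring basic helix-loop-helix transcription factor genes of the oligodendrocyte lineage on chromosome 21, and OLIG2 also marks motor neuron progenitors. OLIG2 (33025935 to 33029185) had no H3K27ac peak in its window. OLIG1 (33070141 to 33072413) had 1 peak of 309 bp, with a fold enrichment of 5.88, located 5.50 kb below the gene within the RNA gene LINC00945. The genes lie 41.0 kb apart, so their windows, with 20 kb on each side, did not overlap. Among genes of similar window length, 66.3% had an H3K27ac peak for OLIG1 and 67.4% for OLIG2. Neither gene body was acetylated in the list.

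MBP and MOG encode myelin proteins of mature oligodendrocytes. MBP, which lies on chromosome 18 from 76978833 to 77133708 (155 kb), had 5 H3K27ac peaks, all within the gene. The fold enrichments were 3.78, 3.24, 8.004, 4.27 and 2.92 in order of position, and the peaks were 148 to 449 bp wide. Genes of similar window length had a median of 6 peaks and a median highest value of 18.1, so MBP was near the former and below the latter; 21.9% of the 1382 genes had a lower highest value. MOG, on chromosome 6 from 29657092 to 29672365, had 1 peak in its window, 6.99 kb ahead of the gene, with a fold enrichment of 6.18. The myelin genes therefore had listed peaks, but none of them at a listed start site, as described next.

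Start sites were taken from the RefSeq promoter table (GRCh38.p14), which matched 5 of the 9 genes with 11 start sites; SLC1A2, S100B, OLIG1 and OLIG2 are named only. A start site was counted as acetylated when a peak overlapped the 300 bases around it, 250 before and 50 after. This held for 3 of the 11 sites, and for 58% of the 22132 start sites of protein-coding genes. The 3 were 2 of the 3 SLC1A3 sites, both within the 1898 bp peak, and 1 of the 2 ALDH1L1 sites. All 3 AQP4 sites, both MBP sites and the MOG site had none. A CTCF peak overlapped 1 of the 11 sites, that of ALDH1L1, against 20.6% of all sites.

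The 250 bases before 5 of these start sites are shown, on the strand of the gene and 5′ to 3′, because they set acetylated beside non-acetylated promoters. Capitals mark CpG dinucleotides, which are dense in the promoters of many broadly active genes. The first SLC1A3 site had no peak and the second had one. The ALDH1L1 site had both marks, and the MBP and AQP4 sites had neither.
SLC1A3 first start, chr5:36596338-36596587, plus strand: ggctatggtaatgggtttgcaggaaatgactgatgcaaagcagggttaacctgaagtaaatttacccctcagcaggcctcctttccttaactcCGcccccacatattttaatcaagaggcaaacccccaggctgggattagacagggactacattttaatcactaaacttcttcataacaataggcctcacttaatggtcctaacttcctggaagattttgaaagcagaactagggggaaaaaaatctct
SLC1A3 second start, chr5:36606356-36606605, plus strand: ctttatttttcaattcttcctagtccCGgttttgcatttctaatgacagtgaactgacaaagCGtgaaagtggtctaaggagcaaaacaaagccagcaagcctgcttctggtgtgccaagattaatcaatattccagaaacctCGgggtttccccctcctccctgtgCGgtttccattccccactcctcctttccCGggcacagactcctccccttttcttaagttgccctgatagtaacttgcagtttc
ALDH1L1 start, chr3:126180587-126180836, minus strand: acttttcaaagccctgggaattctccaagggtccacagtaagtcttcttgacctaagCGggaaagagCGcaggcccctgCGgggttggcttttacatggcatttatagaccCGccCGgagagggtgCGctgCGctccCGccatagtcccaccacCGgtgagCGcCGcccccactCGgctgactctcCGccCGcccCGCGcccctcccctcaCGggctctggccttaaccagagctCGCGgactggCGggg
MBP start, chr18:77132784-77133033, minus strand: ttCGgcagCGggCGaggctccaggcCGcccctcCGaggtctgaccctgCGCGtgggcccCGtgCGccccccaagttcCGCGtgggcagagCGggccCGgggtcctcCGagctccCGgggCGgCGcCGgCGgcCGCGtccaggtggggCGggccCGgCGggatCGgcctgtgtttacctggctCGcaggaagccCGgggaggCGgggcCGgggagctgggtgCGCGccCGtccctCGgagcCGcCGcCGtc
AQP4 start, chr18:26865804-26866053, minus strand: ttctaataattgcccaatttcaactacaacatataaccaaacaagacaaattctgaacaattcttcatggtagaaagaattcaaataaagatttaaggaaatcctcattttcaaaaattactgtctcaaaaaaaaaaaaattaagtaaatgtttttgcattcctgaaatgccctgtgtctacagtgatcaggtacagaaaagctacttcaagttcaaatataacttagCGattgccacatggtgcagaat

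The MBP sequence holds 36 CpG dinucleotides, more than 93.9% of all start sites. Of the 3742 start sites with a CpG count within 20% of it, 81.6% had an H3K27ac peak, and this MBP site did not. The nearest peak was 30.4 kb away. The inner MBP site, not shown, holds 12 and had no peak either, with the nearest 15.4 kb away. Of the 2402 sites with a count similar to 12, 64.2% had a peak. The second SLC1A3 sequence holds 5 CpG dinucleotides, and 28.1% of the 2138 start sites with a similar count had a peak, as this one did. The first SLC1A3 sequence holds 1, and its nearest peak was 3.58 kb away. Within SLC1A3 the acetylated start sites were therefore the inner ones, at 36606606 and 36606954. The ALDH1L1 sequence holds 20, a count at which 79.0% of the 5466 similar sites had a peak. The other ALDH1L1 site, not shown and without a peak, holds 9, and 47.7% of similar sites had one. The AQP4 sequence holds 1, and 8.49% of the 1166 similar sites had a peak. The other AQP4 sites, not shown, hold 4 and 3, with a peak at 23.1% and 14.8% of similar sites. The MOG site, not shown, holds 3, and 14.8% of similar sites had a peak.

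**Figure D3:**
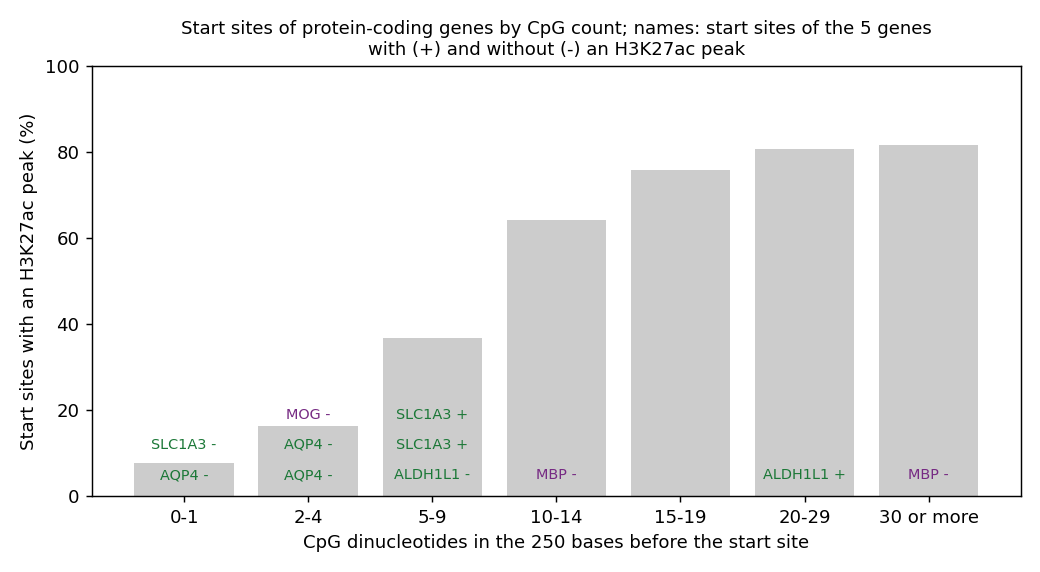
Bars give the percentage of all protein-coding start sites with an H3K27ac peak, by the number of CpG dinucleotides in the 250 bases before the site. Names place the 11 start sites of AQP4, ALDH1L1, SLC1A3, MBP and MOG in these classes, with + for a peak and - for none; MBP without a peak stands in the class of 30 or more CpG, where 81.5% of sites had one.

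A few short motifs were searched in the same 250 bases on both strands. GGGCGG, the core of the GC box bound by SP-family factors, occurred 4 times in the ALDH1L1 sequence and 3 times in the MBP sequence. It occurred once in the first SLC1A3 sequence and once at the inner MBP site, and 53.7% of all start sites hold it. TATAAA, the TATA box, occurred in the ALDH1L1 sequence, at an inner AQP4 site and in 8.996% of all sites. CCCTC, the pentamer after which CTCF is named, occurred at 8 of the 11 sites, 7 of them without a CTCF peak, and is held by 72.5% of all sites. It occurred 3 times at each of the 2 ALDH1L1 sites, of which 1 had a CTCF peak. CAGCTG, an E-box form that basic helix-loop-helix proteins can bind, occurred at the MOG site and at the inner MBP site, and 13.7% of all sites hold it. The letters describe the windows and not binding.

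For CTCF, the astrocyte windows held 19 peaks, or 3.30 per 100 kb, the oligodendrocyte windows 10, or 2.98 per 100 kb, and all protein-coding windows 2.53 per 100 kb. At least 1 peak was found at 3 of 5 astrocyte genes, at 3 of 4 oligodendrocyte genes and at 83% of protein-coding genes. Within the gene interval a peak was found at 2 of 5 astrocyte genes, 1 of 4 oligodendrocyte genes and 55.6% of protein-coding genes. The highest signal values, on the authors' scale, were 280 for ALDH1L1, 225 for SLC1A2, 222 for SLC1A3, 327 for MOG, 276 for MBP and 62.2 for OLIG2, with no peak at AQP4, S100B and OLIG1. The medians of 222 and 169 stood beside 167 over all protein-coding genes. The values of both sets overlapped over most of their range.

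**Figure D4:**
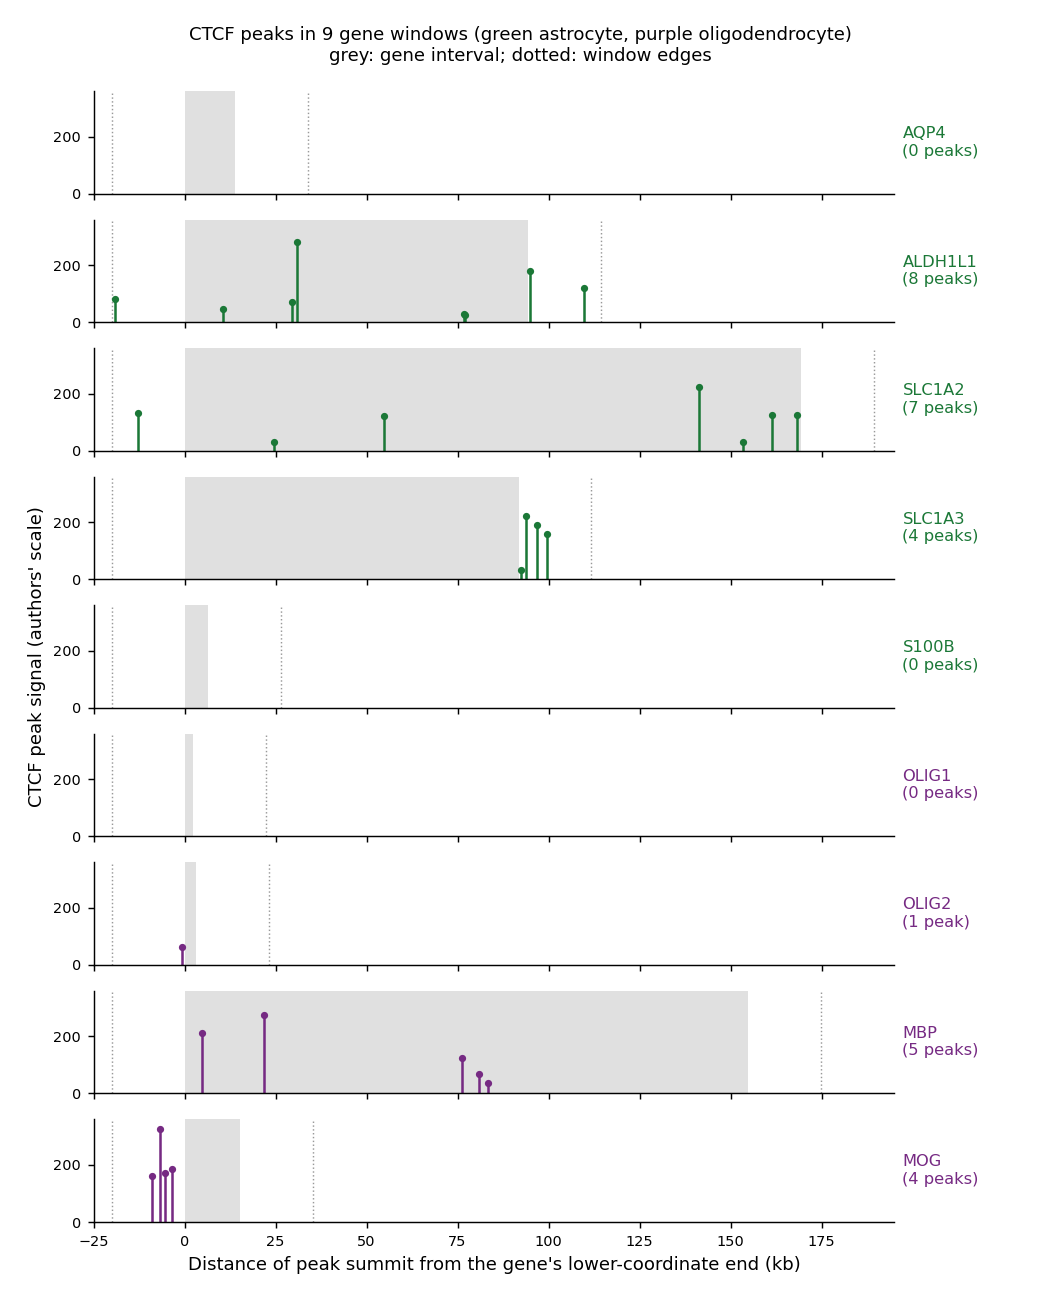
CTCF peaks in the window of each gene. The x axis is the distance of the peak summit from the gene's lower-coordinate end in kb, the y axis is the peak signal on the authors' scale, grey areas are gene intervals and dotted lines the window edges. The 4 SLC1A3 peaks lie past its higher-coordinate end, the 4 MOG peaks lie below its lower-coordinate end, and AQP4, S100B and OLIG1 have none.

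The position of CTCF relative to each gene differed. SLC1A3 had none of its 4 CTCF peaks inside the gene: they lay 0.182 to 7.70 kb past its end, and the strongest (signal 222) ran from 36690253 to 36690741 inside the H3K27ac peak there. MOG had its 4 CTCF peaks 3.23 to 8.74 kb upstream, with signal values of 160, 327, 171 and 186 in order of position. The highest, from 29649999 to 29650489, was at percentile 97.8 of the CTCF list and overlapped the H3K27ac peak of that window. All 5 MBP peaks were within the gene, and the strongest (signal 276) ran from 77000396 to 77000885. The OLIG2 peak was 800 bp wide and lay 0.304 kb below the gene, with a signal value of 62.2, under the list's median of 91.0.

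ALDH1L1 had 8 CTCF peaks, more than 96.7% of the 2167 genes of similar window length. The strongest (signal 280) was inside the gene, from 126134090 to 126134589. The peaks at its acetylated start site were 2 overlapping entries 800 bp wide, with signal values of 28.9 and 25.7, at percentiles 10.3 and 7.49 of the list. SLC1A2 had 7 CTCF peaks, and the one with a signal of 125 from 35419124 to 35419558 lay inside its strongest H3K27ac peak. S100B, with the highest H3K27ac fold enrichment of the 9 genes, had no CTCF peak in its window, whereas 73.9% of genes of similar window length had at least 1. Of the 44 astrocyte H3K27ac peaks, 7 overlapped a CTCF peak (15.9%), as did 1 of the 7 oligodendrocyte peaks (14.3%) and 16.2% of the whole list. In the other direction, 8 of the 19 astrocyte CTCF peaks and 1 of the 10 oligodendrocyte CTCF peaks overlapped H3K27ac, against 28.1% of the whole list.

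Longer lists of astrocyte and oligodendrocyte genes were examined in the same way. All 15 further astrocyte genes had an H3K27ac peak in their window, with a median highest fold enrichment of 23.3, and 13 had one within the gene, beside 81.3% and 69% of protein-coding genes. Of 15 further oligodendrocyte genes 9 had a peak, with a median of 4.49, and 7 had one within the gene. Densities were 10.98 and 2.63 peaks per 100 kb. For CTCF, 13 and 14 of the 15 genes had a peak, beside 83% of protein-coding genes, with median highest signals of 219 and 262 beside 167. Over all protein-coding genes the median was 14.4 and the density 4.57. These lists are not independent evidence, since they were chosen with earlier results of these data known.

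Among the further astrocyte genes the highest values were 62.8 in the window of GFAP, 43.6 in that of FABP7 and 33.7 for NFIA. GFAP encodes the intermediate filament of astrocytes, and its window's strongest peak overlapped the neighbours EFTUD2 and DNAAF19. Inside GFAP the only peak had a fold enrichment of 2.75. FABP7 encodes the brain fatty acid binding protein of radial glia. The strongest peak of its window overlapped SMPDL3A, while the highest inside the gene was 28.1. NFIA encodes a transcription factor that promotes astrocyte formation, and its peak overlapped the gene.

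Among the further oligodendrocyte genes the highest values were 37.3 in the window of MYRF, 13.3 for BCAS1 and 10.6 for SOX10. MYRF encodes the transcription factor that drives myelin genes; the strongest peak of its window overlapped TMEM258 and FEN1, and MYRF itself held none. SOX10 encodes a lineage factor of oligodendrocytes and neural crest. Its strongest peak overlapped POLR2F, and the highest inside SOX10 was 5.83. BCAS1 marks newly myelinating cells, and the strongest peak of its window overlapped no protein-coding gene. No H3K27ac peak was listed in the windows of NKX2-2, a factor of the oligodendrocyte lineage, of the myelin genes MAG, MOBP, OPALIN and UGT8, or of the receptor gene GPR17.

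**Figure D5:**
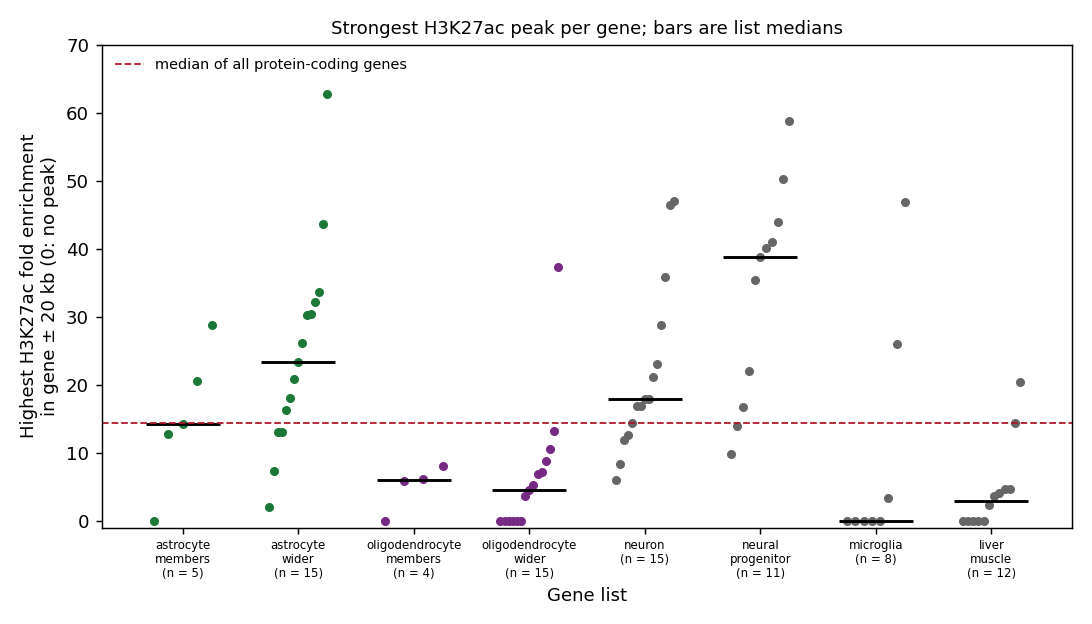
Highest H3K27ac fold enrichment in the window of each gene (y axis; 0 means no peak), by gene list (x axis, with the number of genes). Points are genes, black bars are list medians and the dashed line is the median of all protein-coding genes (14.4); the oligodendrocyte lists have medians of 6.03 and 4.49 and the astrocyte lists 14.3 and 23.3.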

How the data were processed

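CTCF and H3K27ac ChIP-seq peak lists of KOLF2.1J-derived neurons were used. Per the submitters' processing notes, reads were handled with cutadapt 1.16 and the build was hg38; the aligner, the peak caller and its settings are not given in the sources used here. Each list holds both replicates together, per the labels. The deposited CTCF list gives a peak signal on an unstated scale. The deposited H3K27ac list gives a fold enrichment, judged from its layout and values. Both deposited lists give −log10 q values. Values were compared only within a list. The lists give no read counts, and depth is unknown.

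Gene intervals and biotypes came from the RefSeq table of GRCh38.p14, which shares coordinates with hg38; exons and introns were not used. Positions were converted to 1-based. Overlap needed 1 bp. Similar windows were those within 20% of a gene's window length. Scripts ran in Python 3.11.15 with pandas 2.3.3 and numpy 2.4.6, and the overlap counts were checked on simulated peaks. Genes named were the 9 members, and from each longer list the 3 highest and those with no H3K27ac peak. From the marker lists, the highest gene was named. PTPRC, SYN1 and the neuron markers below the median of all protein-coding genes were also named. The genes, lists and motifs were chosen with earlier results of these data known. Alternatives were other window sizes, stricter lists, peaks of neighbouring genes left out, and CTCF peaks merged or without those 800 bp wide. Read tracks and input libraries were not analysed here.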

Additional observations from a re-analysis of the deposited data

How the results depend on the processing

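Of 30 alternatives for the numbers of peaks and the median highest H3K27ac fold enrichment, 20 left the value within 1.5 times (numbers) or unchanged (medians) and 10 moved it. In the gene interval alone the astrocyte genes held 29 H3K27ac peaks in place of 44 and 11 CTCF peaks in place of 19. The oligodendrocyte genes then held 5 CTCF peaks in place of 10, and their median highest fold enrichment was 0 in place of 6.03. With 50 kb each side the counts of the oligodendrocyte genes summed to 22 H3K27ac peaks in place of 7, of which 11 were in the window of MOG. They summed to 16 CTCF peaks, and the median was 6.98. The windows of OLIG1 and OLIG2, genes 41.0 kb apart, then overlapped, and a shared peak was counted for each gene. This held for the H3K27ac peak of 5.88 and the CTCF peak of 62.2, so the distinct peaks were fewer than these sums. In the strongest 50% of peaks the astrocyte genes held 15 H3K27ac and 11 CTCF peaks and the oligodendrocyte genes 3 H3K27ac peaks. A shorter window or list gives fewer peaks by its construction. The astrocyte median of 14.3 was the same in its 5 alternatives. It is the value of the strongest SLC1A3 peak, inside the gene and at percentile 87.7 of the list, so the stricter lists could not remove it. In the gene interval alone ALDH1L1 fell from 12.8 to 4.39 without moving this median. Neither replicate could be left out, because each list holds both replicates together. No paired analysis was possible because the lists hold no values of single replicates. With 5 and 4 genes, 1 gene can decide a density: SLC1A3 for astrocyte H3K27ac (7.64 with it and 4.73 without it per 100 kb).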

Other observations

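Beyond the windows, the distance to the next listed peak varied widely among the genes with little or no H3K27ac. The nearest H3K27ac peaks to AQP4 lay 46.6 kb below and 43.9 kb above the gene, the latter within CHST9, with fold enrichments of 5.54 and 4.62. For OLIG2 they lay 48.6 kb below and 35.1 kb above, with fold enrichments of 3.15 and 5.88, and the latter is the peak in the window of OLIG1. Above MBP no H3K27ac peak was listed for 484 kb, a stretch that includes GALR1, a galanin receptor gene 116 kb away. The nearest CTCF peak above MBP was 73.8 kb away.

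At S100B, which had no CTCF peak in its window, the nearest CTCF peaks lay 29.9 kb above the gene (signal 121) and 178 kb below it (signal 24.4, within PCNT). At SLC1A3 the nearest CTCF peak below the gene was 88.9 kb away (signal 82.2), and the nearest above lay 0.182 kb past its end. The acetylated SLC1A3 start sites lay 81.9 and 81.6 kb from the nearest CTCF peak. Around OLIG1 and OLIG2 the strongest of the nearest CTCF peaks lay 54.8 kb above OLIG1, with a signal of 253.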
